A study of Homo sapiens with 6 samples.

Results

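The genes of protein processing in the endoplasmic reticulum (ER) were compared between HepG2 cells carrying a hairpin against the long noncoding RNA LINC01977 (sh-LINC01977) and HepG2 cells carrying a control hairpin (sh-NC). The members were taken from the pathway annotation deposited beside each gene. Of the 29153 genes listed, 159 carried this pathway, and 156 were kept after ATF4, DDIT3 and BAX were left out. HepG2 is an established human liver cancer cell line. Lentivirus delivered the hairpins, infected cells were selected with puromycin, and RNA was taken from 3 libraries per group at 72 h. Both groups thus shared the virus, the selection and the parent line. The model is 1 line, and the labels do not say whether the 3 libraries came from separate cultures, so p-values measure only the spread between libraries, which may be technical.

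Secreted and membrane proteins enter the ER through the translocon, receive an N-linked sugar from the oligosaccharyltransferase, and fold with the help of chaperones, disulfide isomerases and the lectins calnexin and calreticulin. Correctly folded cargo leaves in vesicles coated by COPII, while misfolded proteins are pulled back to the cytosol and degraded, a route called ER-associated degradation (ERAD). Hepatocytes secrete most plasma proteins through this route. When folding falls behind, the sensors IRE1, PERK and ATF6 start the unfolded protein response (UPR), which raises chaperone and ERAD genes.

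Promoter sequence is shown for 4 members that hold the ER stress response element (ERSE), the classical binding element of ATF6 and of spliced XBP1, and for GANAB, the member of the ER lumen with the largest rise, which did not match it. The element was searched on both strands as CCAAT, any 9 bases, then CCACG, in the 250 bases before the first start that RefSeq lists for each gene (GRCh38.p14), and 132 of the 156 members had such a window. The windows printed read 5′ to 3′ on the gene's own strand, stop before the gene's interval in the deposited table, and carry the fixed letters of the element in capitals. They lie at chr9:125241344-125241593 (HSPA5, minus strand), chr19:12938359-12938577 (CALR, plus strand), chr1:236281986-236282208 (ERO1B, minus strand), chr22:28800598-28800819 (XBP1, minus strand) and chr11:62646727-62646863 (GANAB, minus strand).
HSPA5: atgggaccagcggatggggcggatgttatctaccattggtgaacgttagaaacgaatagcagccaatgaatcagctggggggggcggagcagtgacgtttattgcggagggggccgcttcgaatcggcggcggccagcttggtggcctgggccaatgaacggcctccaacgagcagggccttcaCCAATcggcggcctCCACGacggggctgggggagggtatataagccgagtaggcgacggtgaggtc
CALR: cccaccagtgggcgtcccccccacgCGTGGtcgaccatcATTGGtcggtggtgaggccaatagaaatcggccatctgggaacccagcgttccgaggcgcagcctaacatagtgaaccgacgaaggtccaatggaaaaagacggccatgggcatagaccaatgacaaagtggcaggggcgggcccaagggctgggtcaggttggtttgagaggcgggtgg
ERO1B: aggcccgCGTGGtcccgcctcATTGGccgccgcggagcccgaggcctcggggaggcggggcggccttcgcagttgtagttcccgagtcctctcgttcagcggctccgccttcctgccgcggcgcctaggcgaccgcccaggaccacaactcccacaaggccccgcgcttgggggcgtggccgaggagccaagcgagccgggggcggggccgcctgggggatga
XBP1: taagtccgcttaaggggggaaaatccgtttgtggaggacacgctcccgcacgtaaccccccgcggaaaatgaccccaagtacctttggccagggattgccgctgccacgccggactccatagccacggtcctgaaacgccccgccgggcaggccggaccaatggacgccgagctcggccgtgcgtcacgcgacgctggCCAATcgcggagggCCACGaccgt
GANAB: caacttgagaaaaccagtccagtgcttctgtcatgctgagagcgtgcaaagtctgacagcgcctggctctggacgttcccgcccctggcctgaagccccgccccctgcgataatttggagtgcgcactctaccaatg

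The ERSE letters were found in 6 of the 132 members (4.55%), against 22 of 27305 genes (0.0806%) over all RefSeq genes with such a window. These members were HSPA5, HSP90B1, ERO1B, CALR, CANX and XBP1, and HSP90B1 held the letters at 2 places. In HSPA5 the match lay 66 to 48 bases before the start, in XBP1 52 to 34 bases before it, and in CALR and ERO1B it lay on the opposite strand, 225 to 207 and 243 to 225 bases before it. Of these 6 members, HSPA5, CALR and ERO1B were higher in sh-LINC01977 cells and HSP90B1, CANX and XBP1 were not called in either direction. The related element ERSE-II (ATTGG, any 1 base, CCACG) matched HYOU1 and HERPUD1, neither of them called, or 1.52% of members against 0.0513% of all genes. The UPR element, TGACGTGG, matched 6 members (4.55%, against 0.667% of all genes), of which SEC62 was lower and SEC24A, DNAJC10, HYOU1, UBE2J1 and VCP were not called. In HYOU1 it overlapped an ERSE-II match. The heat shock element (GAA, 2 bases, TTC, 2 bases, GAA) matched HSPA8, HSPA6 and PRKCSH (2.27%, against 0.439% of all genes). A match describes letters in a window and is not evidence of binding.

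Total counts were between 49929024 and 60441515 per library. LINC01977 itself was near the limit of detection, with counts of 4, 0 and 16 in sh-NC and 0, 0 and 4 in sh-LINC01977 libraries (log2 fold change -2.12, standard error 1.96, adjusted p = 0.580 in edgeR's fit of all genes), so libraries were grouped by their labels. The markers of the hepatocyte lineage were abundant in every library. Their summed FPKM (fragments scaled to gene length and library size) was between 4071 and 4433 in sh-NC and between 2867 and 2927 in sh-LINC01977 libraries. Of the 7 markers 5 were called, where 15.1% of all tested genes were. APOB went the other way from the sum, at a mean FPKM of 350 in sh-NC and 367 in sh-LINC01977 libraries. In bulk RNA, fewer cells of a type and less RNA per cell cannot be told apart. The summed FPKM of 5 mesenchymal markers was 3.04 to 4.21 against 5.48 to 7.67 (1 called, COL3A1, THY1 and VIM near 0, with VIM at a mean FPKM of 0.181 against 0.0615 and the higher sum held by COL1A1 and PDGFRB), that of 3 immune markers 10.5 to 13.1 against 14.2 to 16.5 (0 called, nearly all of it CD68, with PTPRC near 0), and that of 3 endothelial markers 0.266 to 0.441 against 0.220 to 0.315 (0 called). The part of these markers in the results on ER genes was not tested.

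The ER processing genes did not move as a block. Of the 156 members, 144 passed the filter of a mean FPKM of at least 0.5, and in edgeR's quasi-likelihood test 14 of them rose and 9 fell at an adjusted p under 0.05. That is 16.0% of the tested members, against 15.1% of all 13452 genes tested. The share that rose was 9.72% of members and 7.05% of all genes, and the share that fell was 6.25% and 8.07%. In this fit the calls of the members as a whole thus stood close to the background. By the thresholds in the study's methods, a fold change of at least 2 and P of at most 0.05, 2 members were higher and 0 lower, where 2.6% of all genes passed, 1.55% higher and 1.05% lower. At an unadjusted p under 0.05 edgeR gave 42 members in either direction, 29.2% of those tested, against 30.5% of all genes. The libraries of the groups did not overlap for 29 members in the higher and 21 in the lower direction, against 37.1% of all genes, 18.8% higher and 18.3% lower. The median log2 fold change of the members was -0.01, and that of all tested genes was 0.00. These splits depend on scaling, since with library totals in place of TMM 23 members were higher and 3 lower. Of all 13452 genes, 1455 were then higher and 768 lower, against 948 and 1085 under TMM. With a replicate block 12 members were higher and 4 lower, where 636 and 754 of all genes were. Under both alternatives members rose more often and fell less often than all genes.

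By role, the luminal chaperones and oxidoreductases held the highest share of rises and the translocon genes the highest share of falls, a description with no test between roles. Rises made up 29.4% of tested luminal chaperones and oxidoreductases, 17.6% of glycan trimming genes and 0.00% of translocon genes, while falls made up 30.8% of translocon genes. Over all tested genes, 7.05% rose and 8.07% fell. The role of luminal chaperones and oxidoreductases also holds the membrane protein WFS1. It further holds BCAP31, DNAJC1 and ERO1B, annotated to the ER membrane and not the lumen. The summed level of its 17 genes was 7107, 7246 and 7203 CPM (counts scaled to a common library size with TMM) in sh-NC libraries and 7944, 8047 and 7979 CPM in sh-LINC01977 libraries. The summed level of the 13 translocon genes was 2002, 2261 and 2056 CPM against 1975, 1847 and 1846 CPM. Neither sum overlapped between groups, nor did the sums of the glycan trimming, oligosaccharyltransferase and VCP roles. Among all tested genes, 37.1% did not overlap. Within the translocon sum the widest difference was that of SEC61A1, 83.6 CPM lower, which was not called. In raw counts the 156 members together took 3.14% to 3.23% of each sh-NC library and 3.43% to 3.52% of each sh-LINC01977 library. The summed level of the 144 tested members was 32636 to 33111 CPM in sh-NC and 34049 to 34136 CPM in sh-LINC01977 libraries, without overlap. In CPM, the widest differences between group means among called members were rises of 395 CPM in CALR, 308 CPM in HSPA5, 186 CPM in PDIA6 and 183 CPM in GANAB, and in the other direction HSPA8 fell by 250.4 CPM.

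**Figure D1:**
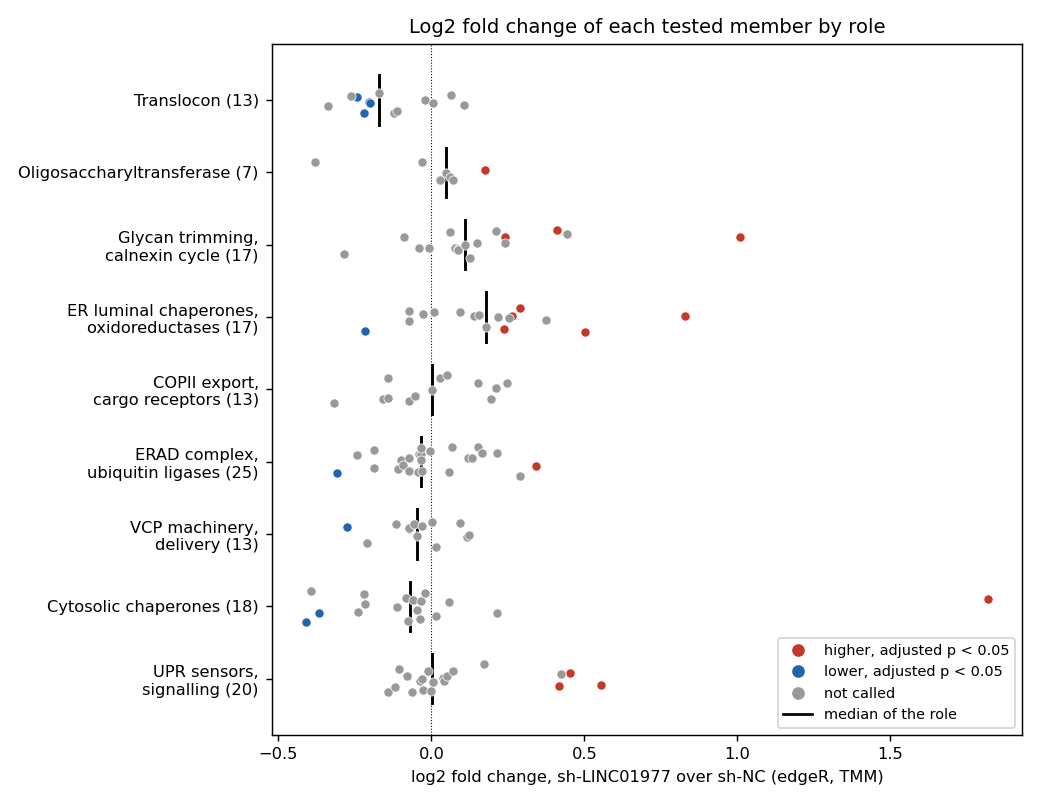
Log2 fold change of sh-LINC01977 over sh-NC on the horizontal axis for the tested members of each role, each point 1 gene, coloured by edgeR's call, with black bars at role medians (number of tested genes in brackets; the unclassified FP236240.1 is not drawn). The medians run from -0.17 for the translocon to 0.18 for the luminal chaperones, and CRYAB and GANAB lie farthest to the right, at 1.82 and 1.01.

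Among translocon genes, 4 of 13 fell, 0 rose and the median log2 fold change was -0.17. SEC62, which helps short and posttranslational substrates into the ER, was at 83.6, 83.6 and 88.3 CPM in sh-NC and 71.2, 68.2 and 76.3 CPM in sh-LINC01977 libraries. This gave a log2 fold change of -0.24 (standard error 0.06) with an edgeR adjusted p of 0.0415. CKAP4, a rough ER sheet protein that the list places here, was at 297 ± 4.88 CPM in sh-NC and 255 ± 9.42 CPM in sh-LINC01977 cells (SD over 3 libraries in each group), with a log2 fold change of -0.22 (edgeR adjusted p = 0.0183). For SEC62 and CKAP4 every sh-LINC01977 library lay below every sh-NC library. The remaining called genes were SEC63, the partner of SEC62 that recruits BiP, and TRAM1, an accessory protein of the channel, each with a log2 fold change of -0.20 and with edgeR adjusted p of 0.0449 and 0.0404. Not called were SEC61A1 and SEC61B, the channel subunits, at log2 fold changes of -0.34 and -0.17, and SSR3, a subunit of the TRAP complex, at -0.02. SEC61A1 ranged from 259 to 533 CPM within the sh-NC libraries alone, and its log2 fold change was -0.07 without the second sh-NC library and -0.57 without the first. SEC61B was at -0.09 without the second sh-LINC01977 library and -0.23 without the first. These 4 falls were close to the threshold. With library totals or with limma on FPKM, 0 translocon genes were called lower, and leaving out each library in turn left 2 without the third sh-LINC01977 or the first sh-NC library and 0 without any of the other 4.

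Among the 7 genes of the oligosaccharyltransferase, which transfers the sugar chain to the nascent protein, 1 rose and 0 fell. That is 14.3% called, against 15.1% of all genes. DDOST, a subunit of the complex, was at 396, 389 and 395 CPM in sh-NC and 456.5, 446 and 431 CPM in sh-LINC01977 libraries, without overlap. Its log2 fold change was 0.18 (standard error 0.04, edgeR adjusted p = 0.0240). The call was lost without the first sh-NC, the second sh-NC, the third sh-NC, the first sh-LINC01977 or the second sh-LINC01977 library, each time leaving 0 called genes in this complex. STT3A and STT3B, the catalytic subunits of the cotranslational and posttranslational forms, were at log2 fold changes of -0.03 and 0.06. RPN1 was at 0.05 with overlapping groups. RPN2, the most abundant subunit by mean FPKM (263), did not overlap, at 888 ± 7.80 and 933 ± 11.2 CPM (SD, n = 3 each), but was not called (edgeR adjusted p = 0.174).

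Of the 17 tested genes of glycan trimming and the calnexin cycle, 3 rose and 0 fell, with a median log2 fold change of 0.11. GANAB, the catalytic alpha subunit of glucosidase II, which removes glucose from new N-glycans, was at 194, 185 and 163 CPM in sh-NC and 385, 355 and 350 CPM in sh-LINC01977 libraries. The lowest sh-LINC01977 library lay well above the highest sh-NC library. The log2 fold change was 1.01, a fold of 2.01 (standard error 0.08, edgeR adjusted p = 0.00100). PRKCSH, the regulatory beta subunit that keeps GANAB in the ER, was at 225 ± 5.22 CPM in sh-NC and 219 ± 4.95 CPM in sh-LINC01977 cells (SD, n = 3 each), with overlapping groups (edgeR adjusted p = 0.558). The fold change of GANAB fell below 2 without the first sh-LINC01977 or the third sh-NC library, leaving 1 member past the methods' thresholds.

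CALR, the soluble lectin chaperone calreticulin, was at 1203, 1191 and 1203 CPM in sh-NC and 1541, 1634 and 1609 CPM in sh-LINC01977 libraries. Its log2 fold change was 0.41 (standard error 0.04, edgeR adjusted p = 0.00133), and the groups were far apart beside the spread within them. CANX, the membrane-bound lectin chaperone calnexin, was at 900.5, 919 and 933 CPM against 832, 559 and 866 CPM. All sh-LINC01977 values for CANX were lower, but the second library stood apart and the gene was not called (log2 fold change -0.29, edgeR adjusted p = 0.267, and -0.11 without that library). OS9, a lectin that hands misfolded glycoproteins to ERAD, rose by a log2 fold change of 0.24 (edgeR adjusted p = 0.0247). PDIA3, the disulfide isomerase of the cycle, did not overlap, at 697 ± 25.0 against 824 ± 68.3 CPM (SD, n = 3 each), and missed the threshold (edgeR adjusted p = 0.0547). UGGT1, which reglucosylates misfolded glycoproteins, the mannosidase MAN1A1 and EDEM1, which marks glycoproteins for degradation, were not called, at log2 fold changes of 0.15, 0.08 and 0.09.

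The luminal chaperones and oxidoreductases held the most rises of any role, 5 of 17, with 1 fall and a median log2 fold change of 0.18. HSPA5, the ER Hsp70 chaperone BiP, was at 1716, 1713 and 1742 CPM in sh-NC and 1984, 2074 and 2036 CPM in sh-LINC01977 libraries. Its log2 fold change of 0.24, a fold of 1.18, was small beside those of GANAB and CALR but well outside the library spread (standard error 0.03, edgeR adjusted p = 0.00536). PDIA4, a disulfide isomerase, was at 653, 657 and 662 CPM against 764, 804 and 799 CPM (log2 fold change 0.26, edgeR adjusted p = 0.00519). PDIA6, another one, was at 848, 842 and 818 CPM against 1030.1, 1024 and 1012 CPM (log2 fold change 0.29, edgeR adjusted p = 0.00272). Neither gene overlapped between groups.

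ERO1A and ERO1B encode the oxidases that recharge disulfide isomerases. ERO1A was at 102, 113 and 104 CPM in sh-NC and 145, 160.4 and 145 CPM in sh-LINC01977 libraries, a log2 fold change of 0.50 (edgeR adjusted p = 0.00450). ERO1B was far less abundant, with a mean FPKM of 0.628, and was at 2.94, 2.70 and 3.30 CPM against 5.09, 5.19 and 5.59 CPM, a log2 fold change of 0.83 (edgeR adjusted p = 0.0125). GPR137B overlaps ERO1B on the other strand, and whether counting used strand is not given. Other-strand genes also overlap PDIA6 (ATP6V1C2) and ERO1A (AL133453.1). TXNDC5, another thioredoxin-domain isomerase, went the other way, at 793 ± 9.85 CPM in the sh-NC group and 682 ± 7.28 CPM in the sh-LINC01977 group. The log2 fold change of TXNDC5 was -0.22 (edgeR adjusted p = 0.00705). P4HB, the founding disulfide isomerase, was at 879 ± 36.8 and 863 ± 41.8 CPM (SD, n = 3 each) and was not called. Nor were HSP90B1, the ER Hsp90 (log2 fold change 0.18, edgeR adjusted p = 0.0922), HYOU1, a nucleotide exchange factor of BiP (0.37, edgeR adjusted p = 0.119), and DNAJB11, a BiP cochaperone (0.14, adjusted p = 0.0796). With library totals HSP90B1 and DNAJB11 were called higher.

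**Figure D2:**
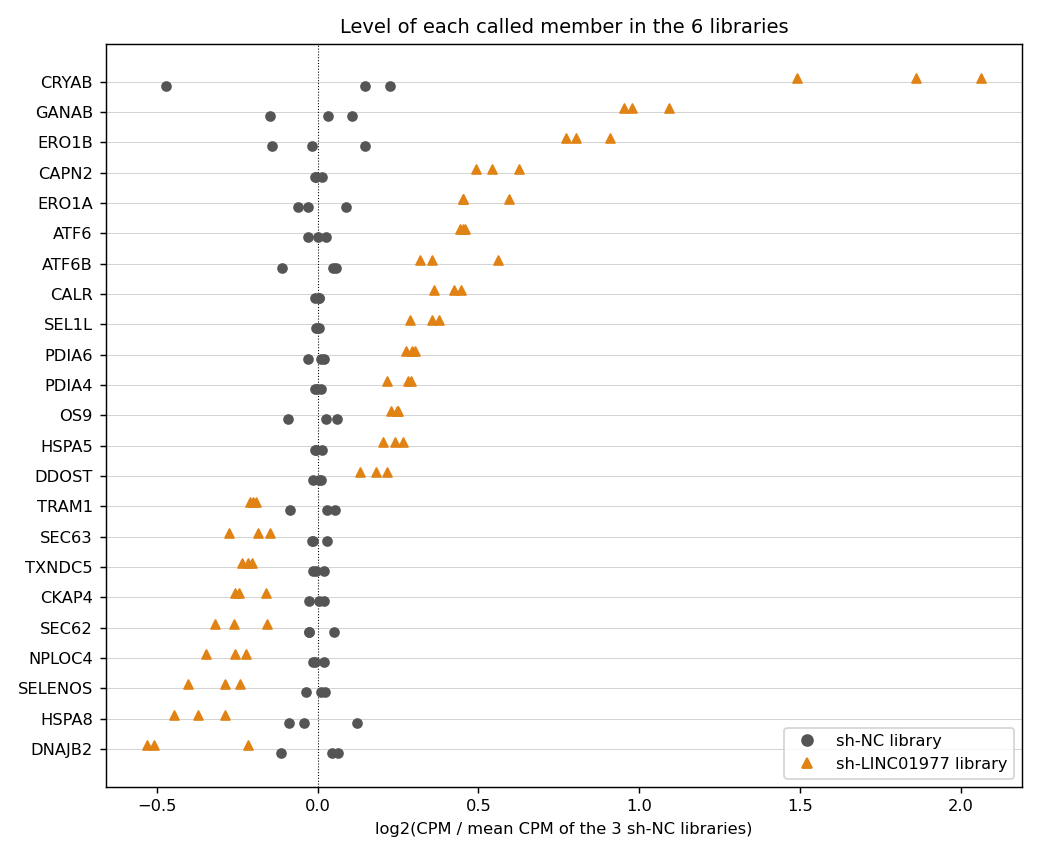
Level of the 23 called members in each library as log2 of CPM over the mean of the sh-NC libraries, with grey circles for sh-NC and orange triangles for sh-LINC01977. No called member overlaps between groups, and CRYAB has the widest spread within sh-NC, from 1.20 to 1.94 CPM.

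COPII export had no called member. Of its 13 tested genes, 4 had an unadjusted p under 0.05 in edgeR (30.8%, against 30.5% of all genes), and the summed level was 2241 ± 44.4 CPM in sh-NC and 2264 ± 54.8 CPM in sh-LINC01977 cells (SD, n = 3 each) with overlapping groups. SEC23A, an inner coat subunit, was at 597 ± 15.6 and 609 ± 19.4 CPM (SD, n = 3 each). SEC24D, a cargo-binding coat subunit, the GTPase SAR1B and LMAN1, the cargo receptor ERGIC-53, were at log2 fold changes of 0.00, -0.07 and 0.05, all with overlapping groups. The nearest to a call was SEC23B, the paralog of SEC23A, at 192 ± 2.83 and 213 ± 5.96 CPM (SD, n = 3 each; edgeR adjusted p = 0.0522). SEC13, an outer coat subunit, followed at 163 ± 19.4 and 131 ± 2.23 CPM (SD, n = 3 each; edgeR adjusted p = 0.0566). With library totals, SEC23B was called.

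Of 25 tested genes of the ERAD complex and its ubiquitin ligases, 1 rose and 1 fell (8.0% called, against 15.1% of all genes). SEL1L, the scaffold of the HRD1 ligase, was at 128, 128 and 128 CPM in sh-NC and 156, 166 and 164 CPM in sh-LINC01977 libraries. Its log2 fold change was 0.34 (standard error 0.04, edgeR adjusted p = 0.00448). SYVN1, the ligase HRD1 itself, was at 57.3, 42.4 and 42.9 CPM against 53.1, 34.6 and 50.6 CPM, and the groups overlapped. SELENOS, a membrane selenoprotein that links VCP to the ER, was at 41.0 ± 0.908 and 33.1 ± 1.90 CPM (SD over 3 libraries in each group), with a log2 fold change of -0.31 (edgeR adjusted p = 0.0235). HERPUD1, an ERAD adaptor that is a classical UPR target, was at 50.2, 63.9 and 71.8 CPM in sh-NC libraries and 48.5, 59.0 and 55.7 CPM in sh-LINC01977 libraries, and the groups overlapped. DERL1, a rhomboid pseudoprotease of the export channel, was not called (log2 fold change 0.17), and DERL3 had counts of 0, 0 and 0 against 4, 0 and 0.

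Among 13 tested genes of the VCP machinery and of delivery to the proteasome, 1 fell and 0 rose. That is 7.69% called, against 15.1% of all genes. NPLOC4, the ubiquitin-binding cofactor of VCP, was at 169, 166 and 165 CPM in sh-NC and 139, 131 and 143 CPM in sh-LINC01977 libraries. Its log2 fold change was -0.27 (edgeR adjusted p = 0.0129). TSPAN10 and a Y_RNA overlap NPLOC4 on the other strand, and whether counting used strand is not given. UFD1, which binds VCP together with NPLOC4, was also lower in every library, at 56.7 ± 3.87 and 49.0 ± 1.21 CPM (SD, n = 3 each), and missed the threshold (edgeR adjusted p = 0.0866). VCP, the ATPase, was not called, at 557 ± 15.0 and 563 ± 5.53 CPM (SD, n = 3 each). UBQLN1, a shuttle factor, was at a log2 fold change of 0.12 and was not called. With limma on FPKM, NPLOC4 was not called.

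Cytosolic chaperones gave 1 rise and 2 falls among 18 tested genes (16.7% called, against 15.1% of all genes). CRYAB, the small heat shock protein alpha B-crystallin, had the largest fold change of all members. It was at 1.84, 1.20 and 1.94 CPM in sh-NC and 4.65, 6.92 and 6.02 CPM in sh-LINC01977 libraries, so it remained a scarce transcript, with a mean FPKM of 1.01. The log2 fold change was 1.82, a fold of 3.53 (standard error 0.25, edgeR adjusted p = 0.00565). HSPB2 and C11orf52 overlap CRYAB on the other strand, and the sources used here do not say whether counting used strand. HSPA8, the constitutive cytosolic Hsp70, was at 1211, 1048 and 1081 CPM against 817, 860.3 and 911 CPM, a log2 fold change of -0.37 (edgeR adjusted p = 0.0149). DNAJB2, a cochaperone of Hsp70, was at 36.4 ± 2.42 and 27.4 ± 3.43 CPM (SD over 3 libraries in each group), with a log2 fold change of -0.41 (edgeR adjusted p = 0.0458). The stress-inducible HSPA1A and its cochaperone DNAJB1 were at log2 fold changes of -0.04 and -0.03, and HSP90AB1, the member with the highest mean FPKM (1283), at 0.02. HSPA1A and HSPA1B are near-identical, as are CRYAA and the unclassified FP236240.1, so reads may be split between them.

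Of 20 tested UPR sensors and signalling genes, 3 rose and 0 fell (15.0% called, against 15.1% of all genes). ATF6, the sensor that is cleaved into a transcription factor, was at 51.3, 53.3 and 52.4 CPM in sh-NC and 72.0, 71.6 and 71.2 CPM in sh-LINC01977 libraries, and the SD was 1.01 CPM in sh-NC and 0.385 CPM in sh-LINC01977 cells. The log2 fold change was 0.45 (standard error 0.05, edgeR adjusted p = 0.00238). Its paralog ATF6B was at 41.8 ± 2.68 and 55.8 ± 5.14 CPM (SD over 3 libraries in each group), with a log2 fold change of 0.42 (edgeR adjusted p = 0.0227). CAPN2, the catalytic subunit of m-calpain, which the pathway annotation includes, was at 82.5, 81.5 and 81.3 CPM against 115, 126 and 119 CPM, a log2 fold change of 0.56 (edgeR adjusted p = 0.00160).

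The other sensors were not called. ERN1, which encodes IRE1, was at 13.8 ± 1.65 and 13.8 ± 2.59 CPM (SD, n = 3 each), and EIF2AK3, which encodes PERK, at 39.1 ± 2.84 and 40.2 ± 2.45 CPM (SD, n = 3 each). XBP1, whose mRNA is spliced by IRE1, was at 204 to 335 CPM in sh-NC and 209.8 to 359.9 CPM in sh-LINC01977 libraries. The range within either group exceeded the difference between them. Gene counts do not separate spliced from unspliced XBP1, and cleavage of ATF6 was not measured.

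Pairs of related genes, either partners in 1 complex or step or paralogs and counterparts, were compared as count ratios within a library, in which scaling cancels. The 15 pairs were chosen after the values were seen, and the ratios are not ratios of protein or of level per length. GANAB over PRKCSH was 0.886, 0.805 and 0.718 in sh-NC and between 1.58 and 1.81 in sh-LINC01977 libraries. CALR over CANX was 1.34, 1.30 and 1.29 against 1.85, 2.92 and 1.86. HSPA5 over HSPA8, the ER against the cytosolic Hsp70, was 1.42, 1.64 and 1.61 against 2.43, 2.41 and 2.23. In these 3 pairs no library overlapped, and with 3 libraries against 3 the exact permutation test cannot give a p below 0.1. PDIA4 over P4HB, ATF6 over ERN1 and SEC23B over SEC23A were also higher in every sh-LINC01977 library, and NPLOC4 over VCP and ERO1A over ERO1B were lower in every one. The remaining pairs overlapped. Among them, ATF6 over ATF6B was 1.25 ± 0.0629 and 1.29 ± 0.109, HSPA5 over HSP90B1 was 1.71 ± 0.0886 and 1.79 ± 0.103, and SEC62 over SEC61B was 0.984 ± 0.0503 and 0.937 ± 0.0747 (SD, n = 3 each).

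**Figure D3:**
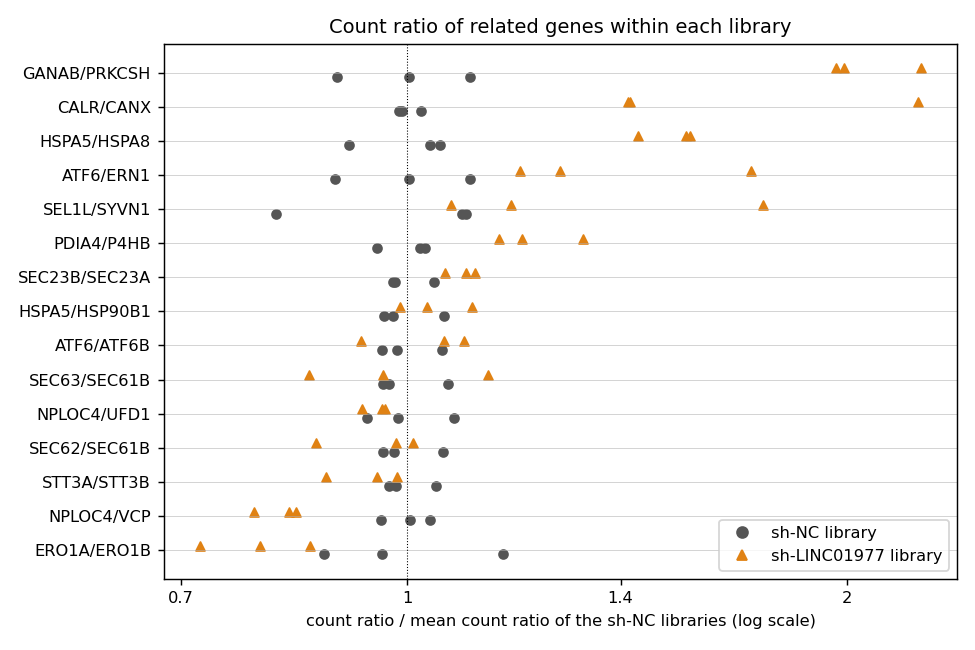
Count ratio of 15 pairs of related genes in each library divided by the mean ratio of the sh-NC libraries (horizontal log axis), grey circles for sh-NC and orange triangles for sh-LINC01977. GANAB over PRKCSH changed most, with a mean ratio 2.07 times that of sh-NC, while ATF6 over ATF6B stayed near 1, at 1.03.

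The deposited GO terms gave a division by place, chosen after the values were seen. It overlaps with the roles, since all luminal members except CKAP4 and MBTPS1 belong to the luminal chaperone or glycan trimming roles. The counts below are thus largely those given by role and not a separate view. Of 27 tested members annotated to the ER lumen, 7 rose (25.9%) and 2 fell (7.41%), against 7.05% and 8.07% of all genes. Their median log2 fold change was 0.15. Of 61 annotated to the ER membrane and not the lumen, 5 rose and 5 fell (8.2% each), with a median of 0.00. Of 56 annotated to neither, 2 rose and 2 fell (3.57% each), with a median of -0.03. Luminal members that rose were HSPA5, GANAB, OS9, PDIA6, PDIA4, CALR and ERO1A, and those that fell were CKAP4 and TXNDC5.

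Genes next to the pathway were read from lists outside it. Of 12 genes of ER stress outside the pathway, 0 rose and 2 fell in edgeR (16.7% called, against 15.1% of all genes). At an unadjusted p under 0.05 edgeR gave 4 of them (33.3%, against 30.5% of all genes). The falls were in SERP1, a translocon-associated stress protein, and SEC11C, a signal peptidase subunit, with log2 fold changes of -0.26 and -0.59 (edgeR adjusted p of 0.0399 and 0.00409). The UPR targets DNAJB9, SDF2L1 and CRELD2 were at -0.13, 0.00 and 0.14 and were not called. MANF and PDIA5, on the same list, were each at 0.12, higher in every sh-LINC01977 library and not called (edgeR adjusted p of 0.151 and 0.185). On this list the groups did not overlap for 2 genes in the higher and 2 in the lower direction (33.3%, against 37.1% of all genes). Of 23 genes of retrieval from the Golgi and of cargo export, 2 rose (8.7%) and 1 fell (4.35%). Over all tested genes, 7.05% rose and 8.07% fell. In edgeR 6 of the 23 had an unadjusted p under 0.05 (26.1%, against 30.5% of all genes). KDELR3 and COPG2 were higher (log2 fold changes 0.32 and 0.41) and KDELR2, a receptor for the same retrieval signal as KDELR3, was lower (-0.24). SEC11C was counted among the stress genes and not in the list of the signal recognition particle and signal peptidase. Of the 12 genes on that list, 1 fell (8.33% called, against 15.1% of all genes). This was SRPRB, the membrane anchor of the SRP receptor, at 71.7, 78.4 and 82.7 CPM in sh-NC and 37.1, 37.3 and 43.3 CPM in sh-LINC01977 libraries, a log2 fold change of -0.98 (edgeR adjusted p = 0.00144).

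Scaling decided the sign of small differences. Under library totals the median of all genes moved to 0.065, and the median of every role shifted upward. The medians of luminal chaperones and of glycan trimming were positive, and that of the translocon negative, under TMM, library totals and limma on FPKM. The medians of the ERAD and VCP roles changed sign between TMM and library totals. HSPA5, PDIA4, PDIA6, ERO1A, CALR, GANAB, SEL1L, ATF6, CAPN2, CRYAB and TXNDC5 kept their call under all 14 alternatives, and ERO1B kept it under all but the filter at a mean FPKM of 1, which removed it. The calls of SEC63, SEC62, TRAM1, SELENOS, DNAJB2, CKAP4, DDOST, OS9, ATF6B, HSPA8 and NPLOC4 were each lost under at least 1 of them. HSP90B1, DNAJB11, UBQLN1, UGGT1 and HYOU1, not called above, were each called under at least 1 of these alternatives. SEC63 was lost under 11, SEC62 and TRAM1 under 10 each, SELENOS and DNAJB2 under 9 each and CKAP4 under 7, each including library totals and limma on FPKM. OS9 was lost without a filter and without any 1 library other than the third sh-NC, with edgeR adjusted p of at most 0.0784. ATF6B was lost with a replicate block and without the first or the third sh-LINC01977 or the first or second sh-NC library (at most 0.0740). HSPA8 was lost with the block and without the first or second sh-LINC01977 library (at most 0.0530).

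**Figure D4:**
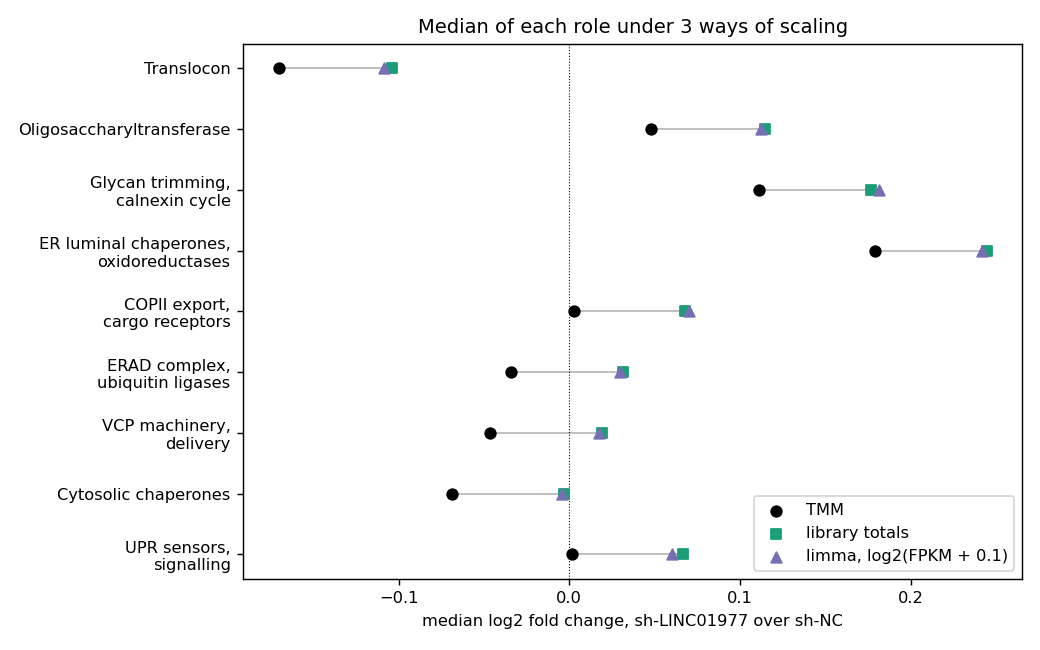
Median log2 fold change of each role under edgeR with TMM (black circles), edgeR with library totals (green squares) and limma on log2(FPKM + 0.1) (purple triangles). Library totals move each median to the right, from 0.18 to 0.24 for luminal chaperones and from -0.17 to -0.10 for the translocon.

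The remaining 12 members lay below the filter and carry no test. Among them, DERL3, HSPA6 and MAPK10 were scarce, at counts of at most 12 in every library. ATXN3, a deubiquitinase, was at counts of 763, 762 and 787 in sh-NC and 977, 950 and 714 in sh-LINC01977 libraries, so the groups overlapped. SEC31B, a COPII outer coat paralog, was at 187, 189 and 154 against 206, 287 and 210. BCL2, the antiapoptotic protein, was at 37, 65 and 35 against 77, 94 and 80. HSPA2, HSPA1L, MAN1C1 and MAP3K5 had counts between 0 and 61.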

How the data were processed

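RNA from the 6 libraries was isolated with TRIzol and run on an Illumina HiSeq, and the authors deposited 1 annotated gene table. Counts are whole numbers per gene without normalization as the authors deposited them, and the FPKM values are the authors' deposited fragments scaled to gene length and library size. The submitters' processing notes name bcl2fastq 2.0, HISAT2, StringTie, DESeq2, limma and build hg38, and the counting step and annotation are not given in the sources used here. Members and gene lists were chosen with earlier results of these data known.

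Counts were tested with edgeR 4.0.16 in R 4.3.3 (quasi-likelihood test, TMM, Benjamini-Hochberg over the 13452 genes at or above a mean FPKM of 0.5, threshold 0.05), a step tested on simulated data. CPM use the TMM library sizes. Depth was 49929024 to 60441515 counts, and intervals cover library spread only. Named were anchors of each role, the 2 largest called changes per role and direction (mean FPKM 1 or more), and members past 2-fold. ERO1B, OS9, SEC63, TRAM1, ATF6B and genes set beside partners were named after their values were seen. Alternatives were library totals, DESeq2 size factors, DESeq2 1.42.0, limma 3.58.1 on log2(FPKM + 0.1) and log2(FPKM + 1), no filter, a filter at a mean FPKM of 1, a replicate block and leaving out each library. The values of 2 members below the filter are not reported here.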

Additional observations from a re-analysis of the deposited data

How the results depend on the processing

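Of all 13452 genes tested, 948 were higher and 1085 lower under TMM. Those counts were 1455 and 768 with library totals, 1269 and 729 with limma at 0.1 and 1285 and 734 with limma at 1. DESeq2 gave 1360 and 1485, and a replicate block 636 and 754. Without a filter they were 711 and 852 of 29153 genes, and at a mean FPKM of at least 1 935 and 1050 of 11569. Counts of members called higher and lower were 14 and 9. With library totals they were 23 and 3, with a member median of 0.057, by role 1 higher for COPII, 2 higher and 0 lower for ERAD, 1 higher for VCP, 2 higher and 1 lower for cytosolic chaperones, 5 higher for glycan trimming, 2 higher for oligosaccharyltransferase and 0 lower for the translocon. Role medians were then 0.068 (COPII), 0.24 (luminal), 0.032 (ERAD), 0.11 (oligosaccharyltransferase) and -0.10 (translocon). With limma on log2(FPKM + 0.1) 2 members were lower and the member median was 0.049, with 1 higher for COPII and for VCP, 2 higher for oligosaccharyltransferase, 1 lower for cytosolic chaperones and 0 lower for ERAD, VCP and translocon, and medians of 0.070, 0.24, 0.030, 0.11 and -0.11 for the same roles. With log2(FPKM + 1) these calls by role were the same, 2 were lower, 1 passed 2-fold, and medians were 0.045 (all members), 0.24 (luminal), 0.023 (ERAD) and -0.11 (translocon). DESeq2 gave 1 higher and 1 lower for COPII, 2 higher for ERAD and 4 lower for cytosolic chaperones. A mean FPKM of at least 1 gave 1 higher for COPII. Without a filter 5 members were lower, 1 passed 2-fold, and 1 cytosolic, 0 oligosaccharyltransferase (higher) and 1 translocon genes were called. DESeq2 size factors moved none of these counts past 1.5 times.

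Small differences that changed sign with library totals, limma at 0.1 and limma at 1 were SSR3 (0.046, 0.045, 0.043), STT3A (0.036, 0.032, 0.031), P4HB (0.039, 0.036, 0.036), HSPA1A (0.028, 0.026, 0.025), DNAJB1 (0.031, 0.030, 0.030), ERN1 (0.061, 0.045, 0.027) and SYVN1 (0.025, 0.0094, 0.010). ERN1 was 0.0049 at a mean FPKM of at least 1, and SEC24D was -0.010 without a filter.

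Leaving out each library gave 11 to 15 members higher and 2 to 6 lower. Of all 13452 genes, 549 to 669 were then higher and 627 to 738 lower. Members past 2-fold were 1 to 2. By role there were 0 to 1 COPII genes in either direction, 1 to 2 cytosolic genes higher and 0 to 1 lower. Oligosaccharyltransferase genes higher were 0 to 1, ERAD genes lower 0 to 1 and translocon genes lower 0 to 2. Medians were 0.12 to 0.20 (luminal) and -0.18 to -0.12 (translocon). Log2 fold changes that changed sign ranged from -0.077 to 0.032 (DNAJB1), -0.012 to 0.092 (EIF2AK3), -0.11 to 0.14 (ERN1), -0.013 to 0.040 (HSP90AB1), -0.11 to 0.033 (HSPA1A), -0.050 to 0.012 (P4HB), -0.028 to 0.12 (RPN1), -0.063 to 0.071 (SEC24D), -0.037 to 0.0068 (SSR3), -0.16 to 0.13 (SYVN1), -0.0015 to 0.038 (VCP) and -0.24 to 0.27 (XBP1). The cause of these changes was not tested.

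Same-numbered libraries did not deviate together from their group means (r of -0.03, 0.02 and 0.06 between the groups). With 3 libraries per group this cannot exclude that the numbers pair the samples. With a replicate block 12 members were higher and 4 lower, with 0 lower for ERAD, 1 lower for cytosolic chaperones, 0 higher for oligosaccharyltransferase and 1 lower for the translocon.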

Other observations

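Replicate libraries agreed closely for most members. The median over 144 tested members of the larger within-group ratio of the highest to the lowest CPM was 1.14. In 10 members this ratio passed 1.5. RNF185, a ubiquitin ligase of ERAD, was at 15.3, 11.4 and 35.1 CPM in sh-NC and 16.6, 45.3 and 13.6 CPM in sh-LINC01977 libraries. WFS1, the ER membrane protein wolframin, was at 49.8, 131 and 142 CPM in sh-NC, where the first library stood apart, and at 139, 120.2 and 126 CPM in sh-LINC01977 libraries. NFE2L2, the oxidative stress factor NRF2, was at 76.2, 78.1 and 48.7 CPM against 137, 57.6 and 77.2 CPM. SEC61A1, MOGS, SAR1A, XBP1, CANX and SYVN1 also passed this ratio and were not called. CRYAB passed it and was called.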
